A study of Mus musculus with 2 samples.

Results

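The miRNAs described here are 10 mature miRNAs that are known to be induced by Toll-like receptor (TLR) signalling in macrophages, out of 1915 mature miRNA names in the count table. They were picked by name, and no measured value is part of the rule, although earlier results of these data were known when they were chosen. The set holds the 5p and the 3p arm of the hairpins of miR-146a, miR-146b and miR-155, together with mmu-miR-147-3p, mmu-miR-132-3p, mmu-miR-212-3p and mmu-miR-9-5p. All 10 had a row in the table. The libraries came from unstimulated bone marrow-derived macrophages (BMDMs), which are macrophages grown in culture from bone marrow progenitors, of wild type (WT) C57/BL6 mice at 8 weeks of age. Per the methods of the study, the marrow of adult male mice was cultured in medium conditioned by L-cells, a source of macrophage growth factor, and the adherent cells were used. The 2 libraries analysed here are biological replicates of a single condition, and the study's legend for these data gives a larger n, so that a further library was not analysed here. Libraries of cells treated with a TLR ligand were not analysed here, so these values are resting levels and induction was not measured.

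TLRs recognise microbial products such as lipopolysaccharide and signal through the adaptor MyD88, the IRAK kinases and TRAF6 to NF-kB and MAP kinases. The miRNA genes switched on by this signalling feed back on it. miR-146a and miR-146b target the mRNAs of IRAK1 and TRAF6 and act as brakes. miR-155 is made from a non-coding host transcript and targets inhibitors of the response such as SOCS1 and SHIP1, so that it favours inflammatory activation. miR-132 and miR-212 are transcribed together from a locus that responds to CREB, miR-147 dampens cytokine output, and miR-9 targets the mRNA of an NF-kB subunit. A miRNA hairpin is cut into a 5p and a 3p strand, of which usually a single strand is loaded into the silencing complex, where bases 2 to 8, the seed, pair with target mRNAs.

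Mature sequences were found for 9 of the 10 members in the RefSeq annotation of GRCm38.p6. The following sequences show which members share a seed, and capitals mark the seed.
mmu-miR-146a-5p: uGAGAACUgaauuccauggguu
mmu-miR-146b-5p: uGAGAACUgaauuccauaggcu
mmu-miR-132-3p: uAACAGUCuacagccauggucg
mmu-miR-212-3p: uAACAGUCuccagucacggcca
mmu-miR-155-5p: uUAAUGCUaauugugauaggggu
mmu-miR-9-5p: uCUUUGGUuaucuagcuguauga
mmu-miR-146a-3p: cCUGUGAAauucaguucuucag
mmu-miR-146b-3p: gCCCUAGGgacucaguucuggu
mmu-miR-155-3p: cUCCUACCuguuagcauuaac
The seed GAGAACU was shared by mmu-miR-146a-5p and mmu-miR-146b-5p, and AACAGUC by mmu-miR-132-3p and mmu-miR-212-3p. Among the 1623 names of the table with a mature sequence, no further name carried the seed of any of these 9 members. With positions counted from 1 at the 5′ end of the member named before the other, mmu-miR-146a-5p and mmu-miR-146b-5p were identical over the initial 17 bases and differed by G18A and U21C. mmu-miR-132-3p and mmu-miR-212-3p were identical over the initial 9 bases and differed by A10C, C14U, U17C, U20C and G22A. The 3p arms of miR-146a and miR-146b had different seeds, CUGUGAA and CCCUAGG. The rule by which the authors assigned reads with several matches is not given in the sources used here, so reads of mmu-miR-146a-5p and mmu-miR-146b-5p that end before base 18 could have been counted under either name. The permitted mismatches are not given either, so longer reads could also have been counted under the other name.

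The hairpins lie at 9 positions of GRCm38 and, in the GENCODE annotation, mostly inside other transcripts. Mir146, the gene of miR-146a, lies at chr11:43374397-43374461 on the minus strand and overlaps no other annotated gene. Mir146b (chr19:46342762-46342870, plus strand) lies in an intron of the protein-coding gene Mfsd13a. Mir155 (chr16:84714140-84714204, plus strand) lies in an exon of Mir155hg, its long non-coding host gene. Mir147 (chr2:122640803-122640881, plus strand) lies in an exon of the protein-coding gene AA467197, within its untranslated region. Mir212 (chr11:75173388-75173478) and Mir132 (chr11:75173682-75173747) lie 203 bases apart on the plus strand in an intron of the non-coding transcript 1700016P03Rik. mmu-miR-9-5p is encoded by 3 hairpins with the same mature sequence, Mir9-1 (chr3:88215598-88215686), Mir9-2 (chr13:83738814-83738885) and Mir9-3 (chr7:79505264-79505353), which its count does not separate. All 3 are on the plus strand, Mir9-1 in an intron of Gm3764, Mir9-2 in an exon of C130071C03Rik and Mir9-3 in an intron of Mir9-3hg, each a long non-coding RNA. The hairpins of miR-146a, miR-132 and miR-212 are shown because arm use and neighbouring position bear on the values that follow, with the 5p and 3p arms in capitals.
Mir146: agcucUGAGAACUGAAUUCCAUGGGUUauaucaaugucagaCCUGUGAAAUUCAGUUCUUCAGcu
Mir132: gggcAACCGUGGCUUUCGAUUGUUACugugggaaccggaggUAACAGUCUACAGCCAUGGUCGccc
Mir212: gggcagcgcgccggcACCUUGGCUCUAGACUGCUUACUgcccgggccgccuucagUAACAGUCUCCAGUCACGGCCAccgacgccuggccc

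In resting BMDMs the 10 members together made up 4.56% ± 2.31 (SD, n = 2) of all miRNA counts, and almost all of this was a single miRNA. Their summed share was 2.93% in replicate 1 and 6.20% in replicate 2. mmu-miR-146a-5p supplied 94.3% and 96.2% of the members' counts, and the miR-146 hairpins with both arms supplied 99.2% and 99.8%. Without mmu-miR-146a-5p the other 9 members held 0.168% of all counts in replicate 1 and 0.236% in replicate 2. Without mmu-miR-146b-5p as well, the remaining 8 held 237 and 152 RpM, where RpM is the number of reads of a miRNA per 1000000 miRNA counts of its library. The libraries held 7322969 and 8094314 counts. No member was at 0 in either library. Of the 1915 names, 891 were detected in replicate 1 and 898 in replicate 2, and 902 had no count in both. Intervals are 95% Wilson intervals per library. A level of 3 counts, which equals 0.410 and 0.371 RpM in replicates 1 and 2, is used as a mark of very low counts. The Wilson upper limit for a count of 0 was somewhat higher, at 0.525 and 0.475 RpM. These intervals and limits account for counting error alone, since PCR copies of a molecule cannot be recognised without molecular identifiers. In these bulk libraries, fewer cells that make a miRNA and less of it per cell cannot be told apart.

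**Figure D1:**
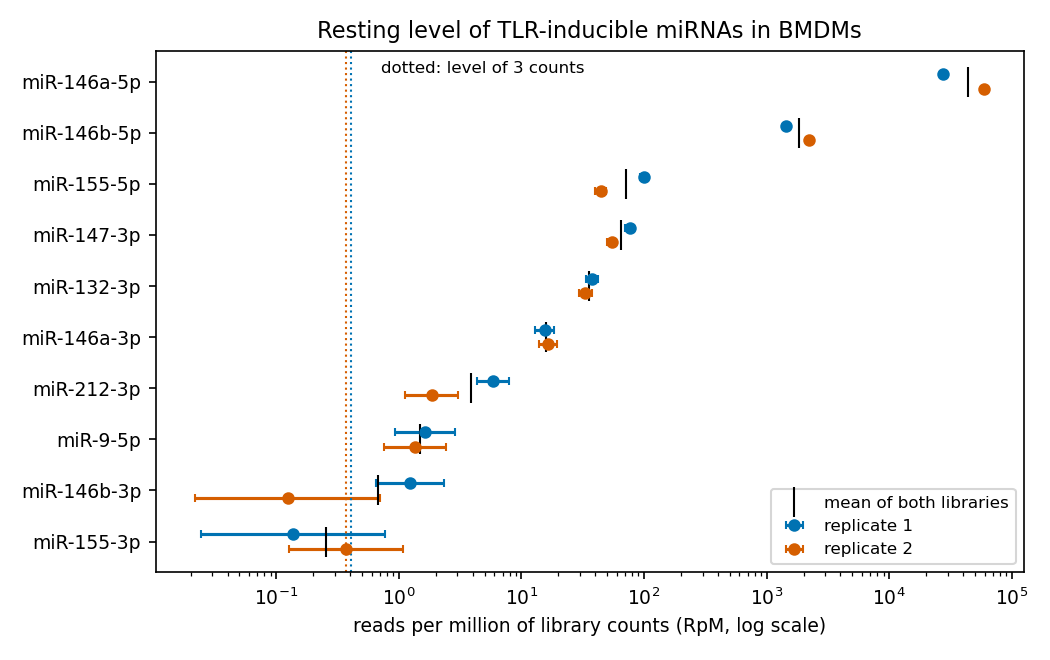
Level of each member in RpM (log scale) in replicate 1 and replicate 2, with 95% Wilson intervals and the mean of both libraries as a vertical line. mmu-miR-146a-5p lies at 27603 and 59649 RpM, whereas mmu-miR-146b-3p and mmu-miR-155-3p reach the dotted level of 3 counts.

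The 5p arms of miR-146a and miR-146b were the most abundant members. mmu-miR-146a-5p was counted 202138 times in replicate 1 and 482820 times in replicate 2, or 27603 RpM (interval 27485 to 27722) and 59649 RpM (interval 59486 to 59813). It was higher in replicate 2 and stood at ranks 6 and 4 of all names. mmu-miR-146b-5p, with the same seed, had 10538 and 17866 counts, or 1439 and 2207 RpM, and a mean of 1823 RpM ± 543 (SD, n = 2) at rank 50. It was also higher in replicate 2. mmu-miR-146a-5p exceeded mmu-miR-146b-5p 19.2-fold in replicate 1 (exact interval 18.8 to 19.6) and 27.0-fold in replicate 2 (26.6 to 27.4), on average 23.1-fold ± 5.55 (SD, n = 2). mmu-miR-146a-5p was the higher in both libraries, while the size of the excess differed between the libraries beyond counting error. Reads of either miRNA counted under the name of the other could change these levels and ratios.

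mmu-miR-155-5p, which promotes inflammatory activation, held a small share of the counts in resting cells, 0.00717% on average. It had 725 counts in replicate 1 and 359 in replicate 2, or 99.0 RpM (interval 92.1 to 106.5) and 44.4 RpM (interval 40.0 to 49.2). The mean was 71.7 RpM ± 38.6 (SD, n = 2), at rank 165 of the 1013 names with a count in either library. In contrast to mmu-miR-146a-5p it was higher in replicate 1, so that the ratio of mmu-miR-146a-5p to mmu-miR-155-5p was 279 in replicate 1 and 1345 in replicate 2. mmu-miR-146b-5p exceeded mmu-miR-155-5p 14.5-fold and 49.8-fold. In each library mmu-miR-146a-5p and mmu-miR-146b-5p thus lay above mmu-miR-155-5p by more than 10-fold, and the size of the gap was not fixed by these libraries.

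mmu-miR-147-3p, which dampens cytokine output, had 559 and 439 counts, or 76.3 and 54.2 RpM, and a mean of 65.3 RpM ± 15.6 (SD, n = 2). Its level could not be placed above or below that of mmu-miR-155-5p. mmu-miR-155-5p was 1.30 times mmu-miR-147-3p in replicate 1 and 0.818 times in replicate 2. mmu-miR-132-3p, of the CREB-responsive locus, followed with 276 and 269 counts, or 37.7 and 33.2 RpM, and a mean of 35.5 RpM ± 3.15 (SD, n = 2). mmu-miR-212-3p from the neighbouring hairpin had only 43 and 15 counts, or 5.87 RpM (interval 4.36 to 7.91) and 1.85 RpM (interval 1.12 to 3.06). The ratio of mmu-miR-132-3p to mmu-miR-212-3p was 6.42 in replicate 1 (exact interval 4.64 to 9.07) and 17.9 in replicate 2 (10.7 to 32.5), with a mean of 12.2 ± 8.14 (SD, n = 2). mmu-miR-132-3p was the higher in both libraries.

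mmu-miR-9-5p and the minor arms of the miR-146 and miR-155 hairpins also held small shares of the counts. mmu-miR-9-5p had 12 and 11 counts, or 1.64 and 1.36 RpM, and its counts were the same as those of mmu-miR-127-3p and mmu-miR-145a-5p in both libraries. mmu-miR-146a-3p had 113 and 133 counts, or 15.4 and 16.4 RpM. mmu-miR-146b-3p had 9 counts in replicate 1 and 1 in replicate 2, and mmu-miR-155-3p had 1 and 3. The last of these was at or under the level of 3 counts in both libraries, so no ratio between them is given for it.

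In order of mean level, mmu-miR-146a-5p was followed by mmu-miR-146b-5p, mmu-miR-155-5p, mmu-miR-147-3p, mmu-miR-132-3p, mmu-miR-146a-3p, mmu-miR-212-3p, mmu-miR-9-5p, mmu-miR-146b-3p and mmu-miR-155-3p. The libraries' values overlapped for mmu-miR-155-5p and mmu-miR-147-3p, and again for mmu-miR-146b-3p and mmu-miR-155-3p. The gap between mmu-miR-212-3p and mmu-miR-9-5p, 2.36 RpM, was smaller than the SD of mmu-miR-212-3p, 2.84 RpM. The gap between mmu-miR-9-5p and mmu-miR-146b-3p, 0.823 RpM, only just exceeded the larger SD of 0.782 RpM. The other neighbours in this order differed by more than the larger of their SDs and kept their order in both libraries. Of the 1013 names with a count in either library, 291 lay below mmu-miR-155-3p, and 2 members were among the 100 highest names.

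**Figure D2:**
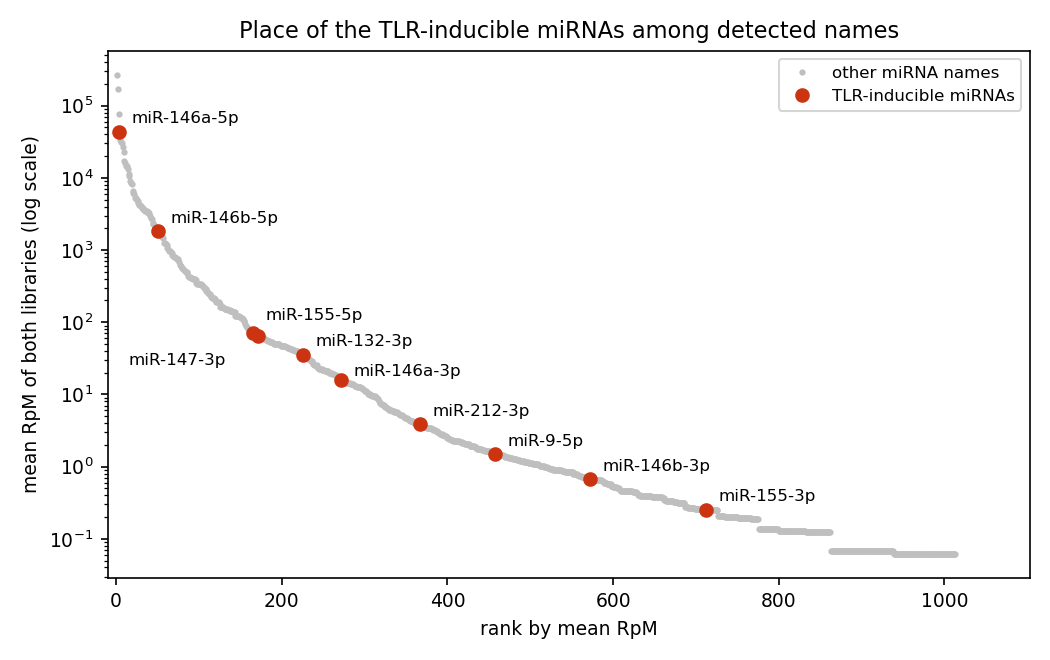
Mean RpM of both libraries (log scale) against rank for the 1013 miRNA names with a count in either library, with the 10 members in red and labelled. mmu-miR-146a-5p stands at rank 4 and mmu-miR-155-3p at rank 710.

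For the 8 members with at least 10 counts in each library, the names directly above and below by mean level over both libraries were taken as the most alike in abundance. mmu-miR-146a-5p lay between mmu-miR-27b-3p (76466 RpM) and mmu-miR-142a-5p (33141 RpM ± 5500), and only the gap to mmu-miR-27b-3p exceeded the larger SD. mmu-miR-146b-5p lay between mmu-miR-93-5p (2033 RpM) and mmu-miR-342-3p (1780 RpM). The neighbours of mmu-miR-155-5p were mmu-miR-185-5p (71.8 RpM) and mmu-miR-511-5p (71.3 RpM), and those of mmu-miR-147-3p were mmu-miR-17-3p (66.4 RpM) and mmu-miR-467a-5p (62.6 RpM). mmu-miR-132-3p lay between mmu-miR-99a-3p (36.1 RpM) and mmu-miR-199a-3p (35.3 RpM). mmu-miR-146a-3p lay between mmu-miR-1843b-3p (16.6 RpM) and mmu-miR-30a-3p (15.8 RpM), mmu-miR-212-3p between mmu-miR-8111 (3.91 RpM) and mmu-miR-32-3p (3.84 RpM), and mmu-miR-9-5p next to mmu-miR-145a-5p (1.499 RpM) and mmu-miR-7687-5p (1.49 RpM). None of these neighbours of the 7 members other than mmu-miR-146a-5p differed from its member by more than the larger SD.

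Arm use was strongly one-sided for most hairpins, and miR-212 was the exception. The 5p arm supplied 99.94% of miR-146a counts in replicate 1 (interval 99.93 to 99.95) and 99.97% in replicate 2 (99.97 to 99.98). For miR-146b it supplied 99.91% and 99.99%, and for miR-155 99.86% (interval 99.22 to 99.98) and 99.17% (97.59 to 99.72). The hairpin of miR-147 was read from the other side, with 99.3% and 99.8% of its counts from the 3p arm, while mmu-miR-147-5p had 4 counts in replicate 1 and 1 in replicate 2. Thus the 5p strand was the main product of the miR-146 and miR-155 hairpins and the 3p strand that of miR-147. In miR-132 the 3p arm also led with 90.5% and 92.1%, and mmu-miR-132-5p had 29 and 23 counts. For miR-9, mmu-miR-9-3p had 0 and 2 counts, so the 5p share was 100% (interval 75.8 to 100) and 84.6% (57.8 to 95.7).

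In miR-212 the leading arm differed between the libraries. mmu-miR-212-5p, with the sequence given on the next line and its seed in capitals, had 35 counts in replicate 1 and 77 in replicate 2, against 43 and 15 for mmu-miR-212-3p.
mmu-miR-212-5p: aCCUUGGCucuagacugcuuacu
The 5p share was 44.9% (interval 34.3 to 55.9) in replicate 1 and 83.7% (74.8 to 89.9) in replicate 2. The interval of replicate 1 included equal use of the arms, and that of replicate 2 did not. With both arms summed, miR-212 had 78 and 92 counts and miR-132 had 305 and 292, so that miR-132 exceeded miR-212 3.91-fold and 3.17-fold. The ratio of the hairpins, 3.54 ± 0.521 (SD, n = 2), was thus lower and less spread than that of the 3p arms. The 5p arms had the opposite order in replicate 2, where mmu-miR-212-5p stood at 3.35 times mmu-miR-132-5p (exact interval 2.08 to 5.59). In replicate 1 the ratio was 1.21, and its interval of 0.717 to 2.05 included equality.

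**Figure D3:**
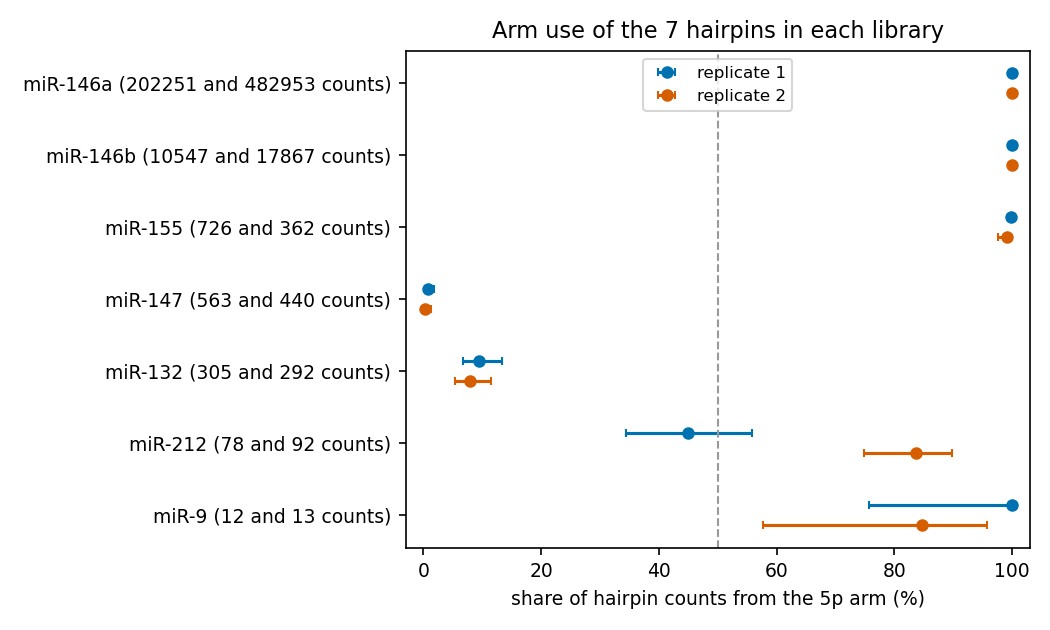
Share of each hairpin's counts that came from the 5p arm, in percent, in replicate 1 and replicate 2, with 95% Wilson intervals and a dashed line at equal use of both arms. The libraries lie apart for miR-212, at 44.9% and 83.7%, and close together for the hairpins of miR-146a, miR-146b, miR-155, miR-147 and miR-132.

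Fisher's exact test of 5p against 3p counts compared the libraries, not conditions, set them against counting error alone, and was adjusted by the Benjamini-Hochberg method over the 160 hairpins in which each arm reached 10 counts summed over the libraries. Of the 7 member hairpins 4 could be tested, and 3 of them differed at an adjusted p under 0.05, where 34.4% of all tested hairpins did. For miR-212 the odds of a 5p count were 6.31 times higher in replicate 2 (Fisher's exact test, Benjamini-Hochberg adjusted p = 9.03e-07). For miR-146a the ratio of 5p to 3p counts was 1789 in replicate 1 and 3630 in replicate 2 (exact test, adjusted p = 4.19e-07), since the 5p arm was higher in replicate 2 and the 3p arm was nearly level between the libraries. For miR-146b the 9 and 1 counts of the 3p arm gave an adjusted p = 0.00339 in the exact test. However, this arm only just reached the minimum of 10 in sum, mostly from replicate 1. Without miR-146b 2 of 3 tested hairpins differed. miR-132 did not pass (exact test, adjusted p = 0.789). In miR-146a and miR-146b the 5p arm nevertheless supplied at least 99.91% of the counts in each library. Where each arm had to reach 100 summed counts, miR-146a was the 1 member hairpin left to test, and 53.9% of the 89 hairpins tested there were called.

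Across the 176 hairpins with at least 100 counts summed over both arms, the median share of the leading arm was 97.2%. miR-146a and miR-146b stood at ranks 13 and 14 of these, miR-147 and miR-155 at ranks 43 and 44, miR-132 at rank 118 and miR-212 at rank 163. The leading arm differed between the libraries in 6 of the 176, or 3.41%, and the others, named after their values were seen, were miR-339, miR-350, miR-466h, miR-503 and miR-669a. In replicate 2 the arms of these 5 were closer to equal than those of miR-212, while in replicate 1 those of miR-339, miR-350 and miR-669a were further from equal. Their 5p and 3p counts in replicate 2 were 2851 and 2756 for miR-339, 985 and 912 for miR-350, 25 and 16 for miR-466h, 62 and 44 for miR-503 and 327 and 247 for miR-669a, against 77 and 15 for miR-212. In replicate 1 they were 2217 and 3291 for miR-339, 846 and 1196 for miR-350, 28 and 31 for miR-466h, 46 and 52 for miR-503 and 489 and 652 for miR-669a, against 35 and 43 for miR-212.

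Replicate spread was wide for several members and narrow for others. Relative to the mean, the SD was 51.9% for mmu-miR-146a-5p, 53.9% for mmu-miR-155-5p and 73.6% for mmu-miR-212-3p. It was 29.8% for mmu-miR-146b-5p, 23.9% for mmu-miR-147-3p, 13.2% for mmu-miR-9-5p, 8.89% for mmu-miR-132-3p and 4.44% for mmu-miR-146a-3p. The widest value, 115.6%, belonged to mmu-miR-146b-3p with 9 and 1 counts, and mmu-miR-155-3p with 1 and 3 counts had 65.3%. Fisher's exact test of each count against the rest of its library, two-sided and adjusted by the Benjamini-Hochberg method over the 588 miRNAs that reached 10 counts summed over the libraries, again compared the libraries and not conditions. The test treats reads as independent and so sets each difference against counting error alone, not against the spread between replicates. Of the 10 members 9 could be tested, and 6 of them differed between the libraries, 2 higher in replicate 2 and 4 higher in replicate 1. That is 66.7% of the tested members, where 44.2% of all tested miRNAs were called. In the decades of mean count in which the 9 members lie, the share called averaged 50.9%. mmu-miR-146b-3p only just reached the minimum of 10 counts in sum, with 9 in replicate 1 and 1 in replicate 2. Its call was lost with DESeq2 size factors, which were 1 for both libraries and so left the counts unscaled. Without mmu-miR-146b-3p, 5 of 8 tested members differed, or 62.5%, with 3 of them higher in replicate 1. The members' share was then near the background, as 54.2% were called of the 448 miRNAs that reached 10 counts in each library.

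The called members moved in both directions. mmu-miR-146a-5p in replicate 2 stood at 2.16 times its level in replicate 1 (95% exact interval 2.15 to 2.17), and its adjusted p in Fisher's exact test was too small for the computation to represent. mmu-miR-146b-5p was 1.53-fold higher in replicate 2 (interval 1.497 to 1.57; exact test, adjusted p = 1.65e-272). mmu-miR-155-5p was 2.23-fold higher in replicate 1 (interval 1.96 to 2.54; exact test, adjusted p = 9.96e-37). mmu-miR-147-3p and mmu-miR-212-3p were also higher in replicate 1, 1.41-fold (interval 1.24 to 1.60; exact test, adjusted p = 3.27e-07) and 3.17-fold (interval 1.73 to 6.14; exact test, adjusted p = 0.000182). The 5p arms of miR-146a and miR-146b thus stood higher in the library in which mmu-miR-155-5p and mmu-miR-147-3p stood lower. The ratio of replicate 1 to replicate 2 for mmu-miR-146b-3p was 9.95, with an interval of 1.38 to 436.0 from 9 counts and a count of 1 that lies under the level of 3 counts (exact test, adjusted p = 0.0213).

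The other 3 tested members did not pass the threshold. mmu-miR-146a-3p was at 1.06 times its replicate 1 level in replicate 2 (interval 0.822 to 1.38; exact test, adjusted p = 0.801). mmu-miR-132-3p was at 0.882 times (interval 0.743 to 1.05; exact test, adjusted p = 0.257) and mmu-miR-9-5p at 0.829 times (interval 0.332 to 2.05; exact test, adjusted p = 0.819). For mmu-miR-146a-3p a difference as large as that of mmu-miR-146a-5p, made from the same hairpin, lay outside the interval. For mmu-miR-9-5p the interval still included a difference of 2-fold. The opposite arm mmu-miR-212-5p was 1.99-fold higher in replicate 2 (interval 1.32 to 3.06; exact test, adjusted p = 0.00179), and mmu-miR-132-5p did not pass (exact test, adjusted p = 0.417).

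**Figure D4:**
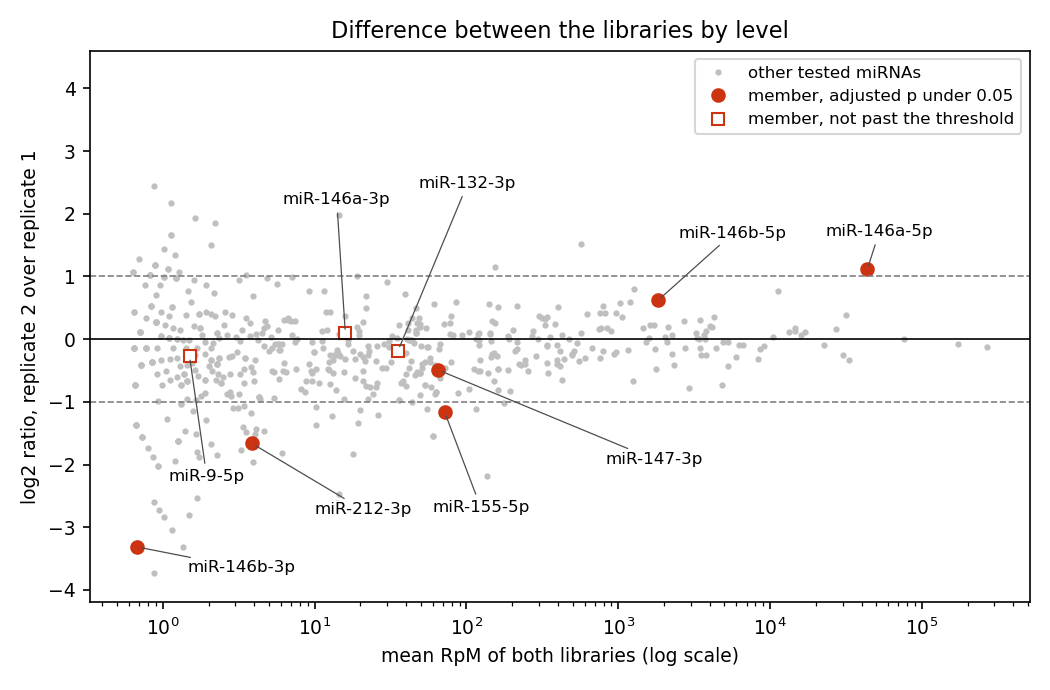
Log2 ratio of replicate 2 over replicate 1 against mean RpM (log scale) for the 588 tested miRNAs, with the 9 tested members in red and dashed lines at a 2-fold difference. Filled circles are members with an adjusted p under 0.05 in Fisher's exact test and open squares are members that did not pass, and 4 members lie beyond the dashed lines.

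The test detects smaller ratios at higher counts, so each member was also set beside miRNAs of the same decade of mean count. On the log2 scale the median size of the ratio was 0.62 over the 9 tested members and 0.39 over the 588 miRNAs. A difference beyond 2-fold was found for 4 of the 9 members, or 44.4%, and for 91 of the 588 miRNAs, or 15.5%. Without mmu-miR-146b-3p it was found for 3 of 8, or 37.5%, and the median was 0.56. Among the 12 miRNAs in the decade of mmu-miR-146a-5p the median was 0.15, and 0 of the others had a ratio as large as its 1.11. In the decade of mmu-miR-146b-5p 3 others of 43 were as far apart as this miRNA, in that of mmu-miR-155-5p 8 others, where the median was 0.36, and in that of mmu-miR-212-3p 12 others of 191. Ratios like that of mmu-miR-147-3p were common, with 56 others of its decade at least as large. mmu-miR-132-3p and mmu-miR-146a-3p were nearer to equal than most of their decade, in which 104 and 124 others had larger ratios.

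The direction of the called members did not depend on the scaling. The median log2 ratio over the 588 miRNAs was -0.16 with library totals and moved up by 0.12 with TMM effective library sizes and by 0.14 with DESeq2 size factors, which were both 1. A scaling adds a constant to all log2 ratios, and here the constant was smaller than the called negative ratios. The log2 ratio of mmu-miR-146a-5p was 1.11 with totals, 1.24 with TMM and 1.26 with DESeq2. That of mmu-miR-155-5p was -1.16, -1.03 and -1.01, and that of mmu-miR-147-3p was -0.49, -0.37 and -0.35.

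Other miRNAs known to respond to TLR ligands were given as a list beside the members. Of 7 that are raised by ligands, 6 could be tested and all 6 differed between the libraries, 3 higher and 3 lower in replicate 2, with a median log2 ratio of 0.039. This count is near the background at their abundance, since 124 of the 143 miRNAs with a mean count of at least 1000 were called, or 86.7%, against 44.2% of all tested miRNAs. mmu-miR-21a-5p, which targets the mRNA of PDCD4, held 279747 and 257096 RpM, 10.1 and 4.31 times the level of mmu-miR-146a-5p. Its log2 ratio of -0.12 with totals changed sign with TMM (0.0024) and with DESeq2 size factors (0.023). The cluster of mmu-miR-99b-5p, mmu-let-7e-5p and mmu-miR-125a-5p did not move as a unit, since mmu-miR-99b-5p (8350 and 14228 RpM) and mmu-miR-125a-5p (3858 and 4430 RpM) were higher in replicate 2 and mmu-let-7e-5p (670 and 545 RpM) was lower. mmu-miR-221-3p (6587 and 5396 RpM) and mmu-miR-222-3p (3744 and 4765 RpM), which are made from neighbouring hairpins, also went in opposite directions. mmu-miR-187-3p, induced with interleukin 10, had 4 and 2 counts and was not tested. Of the miRNAs that fall after ligands, mmu-miR-125b-5p, which targets tumour necrosis factor mRNA, held 831 and 1235 RpM and was higher in replicate 2. mmu-miR-223-3p, a miRNA of granulocytes and monocytes, held 6053 and 4485 RpM and was lower. All miRNAs of this list except mmu-miR-187-3p were more abundant than mmu-miR-155-5p in both libraries.

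All 5 miRNAs listed as myeloid markers were counted in both libraries, but whether each is particular to that lineage was not tested. The 5 myeloid markers, mmu-miR-21a-5p as the most abundant, mmu-miR-142a-5p, mmu-miR-142a-3p, mmu-miR-223-3p and mmu-miR-511-3p, held 329283 and 294810 RpM in sum. mmu-miR-21a-5p supplied 85.0% and 87.2% of this, and the other 4 held 49536 and 37714 RpM. Most of the latter was mmu-miR-142a-5p (37031 and 29252 RpM), while mmu-miR-511-3p held 444 and 351 RpM. The study describes roles of miR-21 in endothelial and smooth muscle cells as well. mmu-miR-21a-5p and mmu-miR-223-3p are also among the TLR-responsive miRNAs given above. All 5 myeloid markers were called lower in replicate 2 with library totals, and mmu-miR-21a-5p changed sign under the other scalings. Their median log2 ratio was -0.34, where that of all tested miRNAs was -0.16, and calls were common at this abundance, with 70 of the same 143 abundant miRNAs called lower in replicate 2. The lymphocyte marker mmu-miR-150-5p was at 27.6 and 10.9 RpM and was called lower in replicate 2, as was mmu-miR-155-5p, which lymphocytes also express. The 3 erythroid markers summed to 541 and 456 RpM, nearly all mmu-miR-486a-5p (1 called, lower in replicate 2), while mmu-miR-451a had 7 and 8 counts and mmu-miR-144-3p had 2 and 0. The 4 stromal markers, with mmu-miR-143-3p on top, summed to 232 and 153 RpM, and 2 of them were called, both lower in replicate 2. The endothelial mmu-miR-126a-3p was at 14.1 and 10.9 RpM and was not called.

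Markers of further cell types were, apart from mmu-miR-128-3p, low or absent. The 3 neural markers summed to 292 and 364 RpM, nearly all mmu-miR-128-3p, which was called higher in replicate 2, and the defining mmu-miR-124-3p was at 0 in both libraries. Of the 2 epithelial markers, mmu-miR-200c-3p was at 15.6 and 10.7 RpM (called, lower in replicate 2) and mmu-miR-205-5p had 1 and 0 counts. The muscle marker mmu-miR-1a-3p was at 0 in both libraries and mmu-miR-133a-3p had 0 and 6 counts. The liver marker mmu-miR-122-5p was at 0 in both. The part that other cells had in the levels of the members or in the differences between the libraries was not tested.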

How the data were processed

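Small RNA libraries from unstimulated BMDMs of WT mice were sequenced by the authors after rRNA depletion, and reads were trimmed and mapped with Bowtie to the mouse stem-loops of miRBase. The authors deposited raw counts per mature miRNA name, without normalization and with both replicates kept apart. The submitters' processing notes also name DESeq2. The release of miRBase, the permitted mismatches and the way reads with more than a single match were counted are not given in the sources used here, and these steps can move counts between related names. Ligation and PCR favour some sequences, so shares of counts differ from shares of molecules.

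Counts were divided by the library total (7322969 and 8094314) and given per 1000000 (RpM) or in percent, as mean ± SD of 2 libraries. With a single condition there was no contrast between groups. The libraries were counted as separate samples because they are labelled as separate replicates. The chi-square per degree of freedom between them was 291.7, which sets them against counting error alone. Fisher's exact test (scipy 1.17.1, Python 3.11.15) with Benjamini-Hochberg adjustment at 0.05 used miRNAs with at least 10 counts summed, or hairpins with at least 10 per arm, and was tested on simulated data. The simulated data held counting error alone, without the wider spread seen between these libraries. TMM factors came from edgeR 4.0.16 and size factors from DESeq2 1.42.0 in R 4.3.3. Alternatives were pooled counts, these scalings, other minimums, equal counts entered once, a total without miR-21a-5p, summed arms, thinning, and each library alone. Mature and hairpin sequences came from RefSeq and host genes from GENCODE.

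The miRNAs named are the members, the opposite arms, neighbours by mean level, a list of other TLR-responsive miRNAs and lists of cell type markers. The members and lists were chosen with earlier results of these data known.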

Additional observations from a re-analysis of the deposited data

How the results depend on the processing

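The summed share of the members, 4.56%, lay between 4.56% and 6.21% over the alternatives that keep both libraries, highest without miR-21a-5p in the total. Without replicate 1 or 2 it was 6.20% or 2.93%. Each library alone lies 0.707 SD from the mean by construction, so leaving 1 out cannot move a mean by 1 SD. The same holds for pooled counts. Of 48 shares of single members under the other settings, 43 moved by less than 1 SD and the other 5 all used the total without miR-21a-5p. These settings could decide little. Equal counts entered once and the minimum of 10 counts in every library barely changed the totals. TMM and DESeq2 scaled the libraries in opposite directions, which largely cancels in a mean. The total without miR-21a-5p raised all shares by a similar factor, so it passed 1 SD for the 5 members with the smallest relative SD. The 43 are therefore no measure of robustness. The ratio of miR-132-3p to miR-212-3p, 12.2, fell to 3.54 with both arms summed, which adds the counts of miR-212-5p and miR-132-5p. It was 6.42 or 17.9 with a single library, and the ratio of miR-146a-5p to miR-146b-5p was 19.2 or 27.0. The hairpins with different arm use numbered 3, or 1 where each arm had to reach 100 summed counts, because miR-146a alone remained testable, and 34.4% and 53.9% of all tested hairpins were called. With at least 1 count summed for each arm, 3 of 7 tested member hairpins differed, where 16.5% of all tested hairpins were called. Of the members, 6 differed between the libraries, also with TMM and with no minimum, and 5 with DESeq2 size factors, at least 10 counts in every library or thinning, which lost miR-146b-3p. Over all tested miRNAs the share called was 44.2%, with 43.9% for TMM, 24.4% for no minimum, 42.7% for DESeq2 size factors, 54.2% for 10 counts in every library and 42.1% for thinning. No paired analysis was possible because the libraries belong to a single condition. Depth limits miR-146b-3p and miR-155-3p, which reach the level of 3 counts, and miR-9-5p with 12 and 11 counts.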
